A study of Mus musculus with 60 samples.

Results

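Glutathione S-transferases were followed in cultured mouse hepatocytes that carried or lacked Met, the receptor tyrosine kinase for hepatocyte growth factor (HGF). The genes were Gsta2, Gsta3 and Gsta4 of the alpha class, Gstm1, Gstm2, Gstm3, Gstm5 and Gstm6 of the mu class, Gstp1 of the pi class and the microsomal transferase Mgst1. They were matched by symbol in the array annotation, which gave 10 genes with 1 probe each, of 14442 genes and 21997 probes in all. The genes were selected on the difference between KO and WT hepatocytes in these data, which was known when they were proposed, so every difference between genotypes is given here as a description and is not tested. The label named alpha and mu transferases, and Gstp1 and Mgst1 belong to neither class.

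The hepatocytes came from livers of adult male mice aged 9 to 10 weeks. WT cells were the Cre controls (strain label C57BL, with a heterozygous Cre recombinase transgene named on some of the WT arrays). KO cells were Alb-Cre +/-; Met Fl/Fl, in which the albumin promoter drives Cre in hepatocytes and removes floxed Met there, and their strain label was 129SV/C57BL6. Strain and genotype changed together on all arrays and cannot be told apart. Cells of each genotype were plated with serum, changed to serum-free medium and, on the next day, taken untreated or given HGF. RNA of the HGF cultures was taken after 0.5 h, 2 h, 12 h or 24 h. The dose is 50 ng/ml in the culture protocol and 50 nM in the treatment labels, and times were taken from the sample titles because the treatment labels give 0.5 h for the 12 h samples. Each of the 10 groups held 3 replicates from separate mice, and the times may share mice. The untreated cells are those of the start, with none kept to 12 or 24 h in the data used here, so an effect of HGF and of the hours in culture cannot be told apart in any comparison over time.

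Each replicate was read on 2 two-colour arrays with exchanged dyes, against RNA pooled from WT hepatocytes, 60 arrays in all. A value is a log2 ratio, read as sample over pooled reference, so 1 unit is a doubling relative to the reference and levels of different genes cannot be compared. This direction is the likely one, because the labels put the sample in the same channel position on every array. The arrays of the 2 dyes differed strongly: in 23 of 30 replicates the Cy5 and Cy3 arrays correlated negatively over probes as deposited (r from -0.677 to 0.186). The cause was not tested. With the group mean of each dye subtracted, the 2 arrays of a replicate correlated above 0 in 20 of 30 replicates. The median r was 0.03, so this gives little check of the direction. Averaging the 2 arrays of a replicate cancels an effect that is equal and opposite in them. The Cy5 array of WT untreated replicate 3 ran against the other arrays and the arrays of KO 24 h replicate 2 were noisy, and both replicates were left out in an alternative. Arrays fell into 4 runs of consecutive array numbers (sets A to D). Set D holds the 0.5 h cultures and, but for KO replicate 3, those of 2 h, and no untreated culture, so in set D array set and HGF time cannot be told apart. KO 2 h replicate 3 and KO untreated replicate 3 share set A, which is the only set with both an untreated culture and one of these 2 times. Set C holds all 12 h cultures and most of the untreated and 24 h ones, the others being in sets A and B. The Met probe was not called in any of the 13 comparisons (0.20 in untreated KO and 0.23 in untreated WT), so the array gives no check of the deletion, and where the probe lies relative to the deleted part is not known here. The ratios are to pooled hepatocyte RNA, so they cannot show whether the labelled cell type is present, only how its markers moved.

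Glutathione S-transferases join glutathione to reactive, mostly fat-soluble compounds, which prepares them for export and disposal. Alpha and mu enzymes are abundant, soluble dimers in the liver, where they handle drugs, toxins and products of lipid oxidation, and their genes stand in clusters of close relatives. The transcription factor NRF2, held back by KEAP1, and the xenobiotic receptors CAR and PXR are known activators of several of these genes.

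The RefSeq gene table (GRCm38.p6) places the mu genes side by side on chromosome 3 in the order Gstm5, Gstm7, Gstm6, Gstm3, Gstm2, Gstm1, Gstm4. The alpha genes are split, with Gsta3 on chromosome 1 and Gsta4, Gsta1 and Gsta2 in this order on chromosome 9. Promoter windows, from 250 bases before the start site to 50 after it, were found in RefSeq (GRCm38.p6) for 9 of the 10 genes, 13 windows in all. They are shown for 4 genes that fell in WT cells at 24 h (Gsta3, Mgst1, Gstm3, Gstm2) and for the 2 mu genes that flank them in behaviour and position and did not fall (Gstm1, Gstm5). Each is written 5′ to 3′ on the gene's own strand, and capitals mark a match to any of 3 motifs. TGACNNNGC is the core of the antioxidant response element that NRF2 binds. The AP-1 site was searched as TGACTCA. The third motif was TATAAA, the letters of a TATA box, matched anywhere in the window.
Gsta3, chr1:21240335-21240634, plus strand: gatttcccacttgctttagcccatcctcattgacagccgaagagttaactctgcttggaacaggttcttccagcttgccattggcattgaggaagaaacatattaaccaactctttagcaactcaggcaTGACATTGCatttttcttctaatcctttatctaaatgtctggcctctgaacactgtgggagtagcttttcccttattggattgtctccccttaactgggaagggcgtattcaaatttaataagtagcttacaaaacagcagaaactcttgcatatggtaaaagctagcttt
Mgst1, chr6:138140277-138140576, plus strand: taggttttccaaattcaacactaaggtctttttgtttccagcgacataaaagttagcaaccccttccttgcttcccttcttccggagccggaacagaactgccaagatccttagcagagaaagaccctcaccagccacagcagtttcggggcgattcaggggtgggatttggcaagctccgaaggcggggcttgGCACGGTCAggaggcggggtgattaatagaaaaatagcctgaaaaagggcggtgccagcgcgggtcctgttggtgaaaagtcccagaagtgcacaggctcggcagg
Gstm3, chr3:107969125-107969424, minus strand: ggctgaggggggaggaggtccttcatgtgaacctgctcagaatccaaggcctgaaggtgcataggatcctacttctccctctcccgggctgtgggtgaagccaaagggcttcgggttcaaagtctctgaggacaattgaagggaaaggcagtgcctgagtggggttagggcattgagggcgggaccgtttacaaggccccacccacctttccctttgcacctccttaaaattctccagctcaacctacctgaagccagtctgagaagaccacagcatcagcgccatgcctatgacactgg
Gstm2, chr3:107986371-107986670, minus strand: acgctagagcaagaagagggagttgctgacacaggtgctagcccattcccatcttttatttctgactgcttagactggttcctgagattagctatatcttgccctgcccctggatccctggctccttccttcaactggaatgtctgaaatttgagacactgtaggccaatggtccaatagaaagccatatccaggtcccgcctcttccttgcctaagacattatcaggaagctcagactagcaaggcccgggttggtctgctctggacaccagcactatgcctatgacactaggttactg
Gstm1, chr3:108017769-108018068, minus strand: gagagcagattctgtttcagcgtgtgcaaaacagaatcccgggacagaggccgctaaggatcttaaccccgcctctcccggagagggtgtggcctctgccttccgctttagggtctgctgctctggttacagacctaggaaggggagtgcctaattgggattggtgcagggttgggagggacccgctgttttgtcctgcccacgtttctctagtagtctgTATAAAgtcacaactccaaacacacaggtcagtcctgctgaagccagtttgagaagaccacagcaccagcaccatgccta
Gstm5, chr3:107895604-107895903, plus strand: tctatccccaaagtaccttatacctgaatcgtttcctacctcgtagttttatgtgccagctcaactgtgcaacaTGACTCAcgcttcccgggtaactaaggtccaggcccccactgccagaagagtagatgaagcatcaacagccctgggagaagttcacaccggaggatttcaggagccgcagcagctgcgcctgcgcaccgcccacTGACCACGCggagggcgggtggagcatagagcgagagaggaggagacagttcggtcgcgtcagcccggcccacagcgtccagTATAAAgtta
Both strands were searched, and positions count from the start site as 0. TGACNNNGC was in 12.4% of 32851 windows genome-wide and in 3 of the 13 windows here. These belong to 3 of the 9 genes: Gsta3 (-121 to -113), Gstm5 (-42 to -34) and, on the opposite strand, Mgst1 (-56 to -48 in the window shown, which is 1 of its 2 starts). TGACTCA was in 5.2% of windows genome-wide and in 2 of the 13, those of Gstm5 (-176 to -170) and Gstp1. TATAAA was in 13.6% and in 3 of the 13. These were Gstm1 (-30 to -25 in the window shown, which is 1 of its 2 starts), Gstm5 (40 to 45, after the start site) and, on the opposite strand, Gsta2 (-246 to -241). None of the 3 motifs was in the windows of Gstm3 and Gstm2, which says only that these letters are not there. Genes with and without TGACNNNGC were among those that fell and among those that did not.

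In WT cells the transferases divided into genes that fell over 24 h of HGF and genes that did not. Gsta2, Gsta3, Gstm2, Gstm3, Gstm6 and Mgst1 fell, by 1.24 to 1.87 on the log2 scale. In KO cells over the same time none of the 10 was called lower in the fit as reported, and Gsta4 was called higher. The Gsta4 call was kept in 13 of 21 alternative settings, and Mgst1 in KO was called lower in some of them. limma was fitted to all 30 replicates and the 14580 probes that passed the filter, the 10 transferase probes among them. Probes are called where the p adjusted by Benjamini-Hochberg over all 14580 is below 0.05. The 10 probes cannot be taken as 10 independent cases, since close relatives may share hybridisation and probe sequences were not available here. In bulk cultures, fewer cells of a type and less RNA per cell cannot be told apart.

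**Figure D1:**
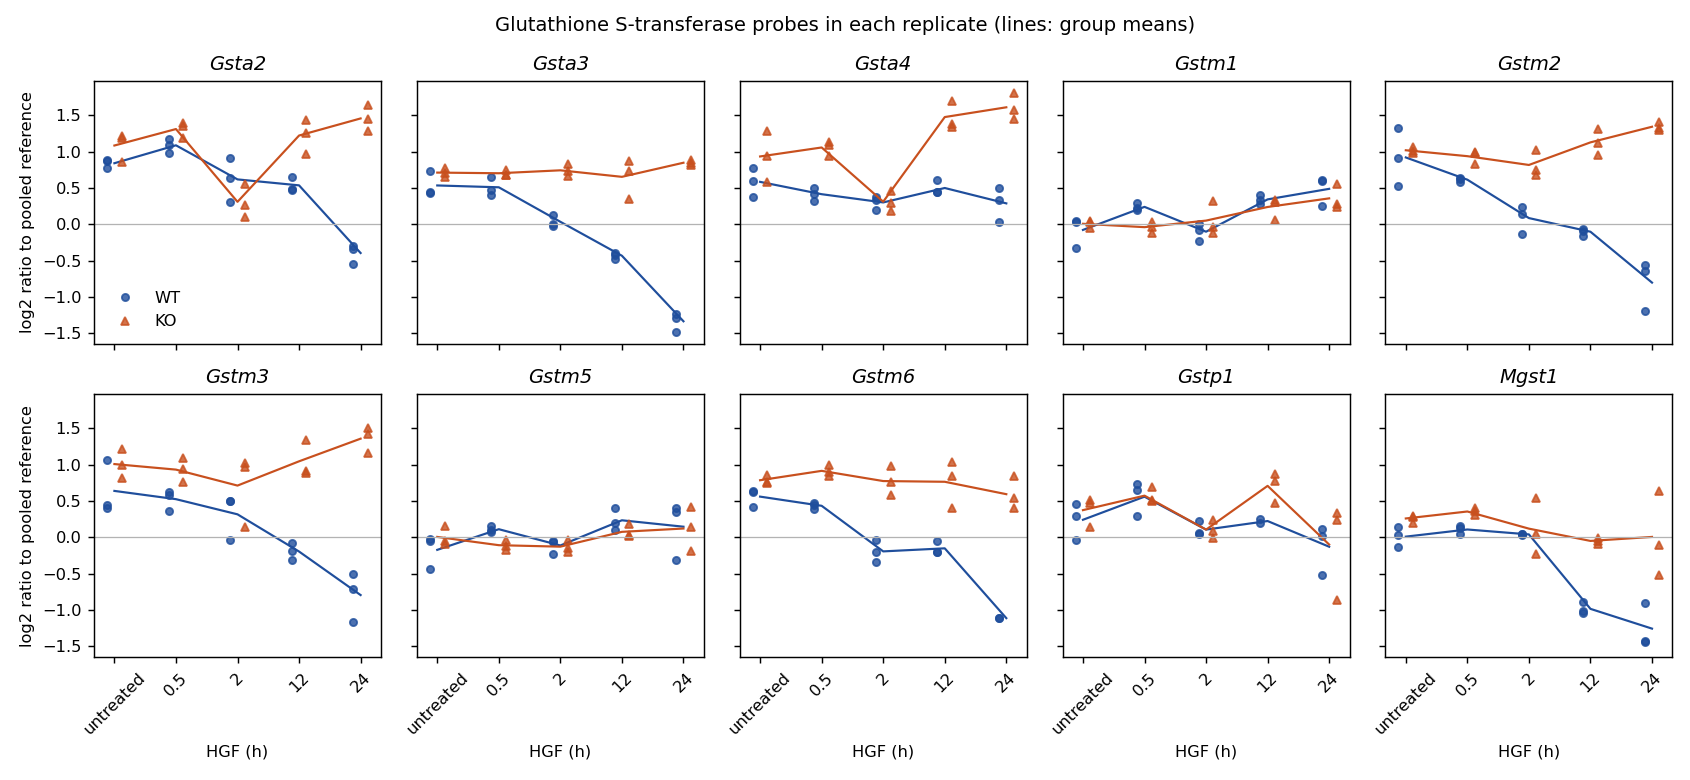
Log2 ratio to the pooled reference (vertical axis) of each transferase probe in each replicate, by HGF time (horizontal axis, evenly spaced categories), with WT as blue circles, KO as orange triangles and lines through the group means. In WT the 3 Gsta3 replicates at 24 h sit between -1.48 and -1.23, below all other replicates of that gene, while those of KO at 24 h sit between 0.81 and 0.89.

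Gsta3, an alpha transferase, had the largest fall among the 10. The untreated WT replicates were at 0.44, 0.43 and 0.73, those at 12 h at -0.48, -0.40 and -0.42, and those at 24 h at -1.29, -1.23 and -1.48. The 3 groups did not overlap and stepped down with time. The change was -0.97 ± 0.12 (log2 difference ± SE) at 12 h (limma adjusted p = 3.08e-05), and 3.65-fold at 24 h (-1.87 ± 0.12, limma adjusted p = 2.22e-10). In KO cells the untreated replicates were at 0.71, 0.65 and 0.77 and the 24 h replicates at 0.85, 0.81 and 0.89, a log2 difference of 0.14 ± 0.12 (limma adjusted p = 0.680).

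For Gsta2, an alpha transferase on chromosome 9, the change from untreated in WT was called at 24 h only. WT replicates were at 0.88, 0.77 and 0.87 untreated, at 0.47, 0.49 and 0.66 at 12 h and at -0.55, -0.30 and -0.34 at 24 h. The change was not called at 12 h (-0.30 ± 0.15, limma adjusted p = 0.257) and was a 2.36-fold fall at 24 h (-1.24 ± 0.15, limma adjusted p = 6.04e-06). The KO replicates at 24 h, at 1.28, 1.64 and 1.45, were all above the untreated ones at 1.19, 1.21 and 0.85, with a difference of 0.37 ± 0.15 that was not called (limma adjusted p = 0.205).

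Gsta4, the alpha enzyme known for conjugating 4-hydroxynonenal from oxidised lipids, behaved otherwise. In WT its untreated replicates (0.60, 0.38, 0.77) and 24 h replicates (0.33, 0.50, 0.03) overlapped, with a difference of -0.30 ± 0.15 (limma adjusted p = 0.279). KO replicates went from 1.28, 0.93 and 0.59 untreated to 1.70, 1.34 and 1.38 at 12 h and 1.45, 1.57 and 1.81 at 24 h. In the fit as reported it was the only one of the 10 called in KO at any HGF time, 1.60-fold higher at 24 h (0.68 ± 0.15, limma adjusted p = 0.0152). That call was kept in 13 of 21 alternative settings. It was lost, among others, on either dye alone, without array sets A and B, and without KO untreated replicate 2 or 3, and the differences over all settings were 0.40 to 0.92.

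Among the mu genes, Gstm6, Gstm3 and Gstm2, which are neighbours on chromosome 3, fell. Gstm2 replicates in WT were at 0.53, 1.33 and 0.91 untreated, -0.13, 0.24 and 0.14 at 2 h, -0.06, -0.16 and -0.09 at 12 h and -1.20, -0.56 and -0.65 at 24 h. The untreated replicates were spread widely, yet none of the later replicates from 2 h on reached the lowest of them. Gstm2 was 1.78-fold lower at 2 h (-0.83 ± 0.16, limma adjusted p = 0.0163), 2.03-fold at 12 h (-1.02 ± 0.16, limma adjusted p = 6.26e-04) and 3.30-fold at 24 h (-1.72 ± 0.16, limma adjusted p = 1.46e-07). KO replicates of Gstm2 were at 1.06, 0.98 and 1.01 untreated and 1.29, 1.41 and 1.33 at 24 h, a difference of 0.32 ± 0.16 (limma adjusted p = 0.346).

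Gstm6 had values of both dyes in 2 WT replicates at 24 h, and these agreed closely. WT replicates were at 0.42, 0.62 and 0.64 untreated, -0.34, -0.03 and -0.20 at 2 h, -0.20, -0.20 and -0.05 at 12 h and -1.11 and -1.11 at 24 h. It was lower at 2 h (-0.75 ± 0.14, limma adjusted p = 0.0109) and 12 h (-0.71 ± 0.14, limma adjusted p = 0.00403), and 3.19-fold lower at 24 h (-1.67 ± 0.16, limma adjusted p = 1.57e-07). The 2 h calls of Gstm2 and Gstm6 were each lost without WT untreated replicate 2, without WT 2 h replicate 1, on either dye alone and with array set as a term. In KO cells the untreated Gstm6 replicates (0.85, 0.75, 0.76) and 24 h replicates (0.55, 0.84, 0.40) overlapped (-0.19 ± 0.14, limma adjusted p = 0.591).

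Gstm3 fell less than Gstm2 and Gstm6 and had a wider error. WT replicates were at 0.40, 0.45 and 1.07 untreated, -0.08, -0.32 and -0.19 at 12 h and -1.16, -0.71 and -0.51 at 24 h. It was 2.70-fold lower at 24 h (-1.43 ± 0.22, limma adjusted p = 1.12e-04). The call at 12 h (-0.83 ± 0.22, limma adjusted p = 0.0246) was kept in 9 of 21 alternative settings, and it was lost without WT untreated replicate 3 and without any of the 3 WT 12 h replicates. The untreated replicate at 1.07 is the one whose Cy5 array ran against the others, but its high Gstm3 value came from its Cy3 array. That was at 1.625, beside 0.204 and 0.189 on Cy3 in replicates 1 and 2. Its Cy5 array was at 0.515, beside 0.594 and 0.717. KO replicates were at 0.99, 0.81 and 1.22 untreated and 1.501, 1.42 and 1.16 at 24 h (0.35 ± 0.22, limma adjusted p = 0.494).

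Gstm1 and Gstm5, on either side of those 3 in the cluster, were not called lower. Gstm1 replicates in WT went from 0.05, 0.04 and -0.32 untreated to 0.61, 0.60 and 0.25 at 24 h, where they were 1.48-fold higher (0.57 ± 0.13, limma adjusted p = 0.00629). Gstm1 was thus called in the opposite direction to its neighbours, but the call was lost when noisier groups were given less weight (limma adjusted p = 0.150), as on either dye alone, with scale normalization, with the 2 groups alone in the fit and with the doubtful Cy5 array turned. In KO it went from 0.03, -0.05 and 0.05 to 0.28, 0.55 and 0.24 (0.35 ± 0.13, limma adjusted p = 0.155), and it was called higher with dye profiles removed, without array sets A and B and with array set as a term (0.43 to 0.47). Gstm5, a mu enzyme known mainly from brain and testis, stayed within -0.44 to 0.42 in all 30 replicates. In the fit as reported it was not called at any time in either genotype. Among the alternatives it was called higher in WT at 12 h on Cy5 alone (0.81, limma adjusted p = 0.0489). At 24 h in WT it was called higher without array sets A and B (0.42, limma adjusted p = 0.0226) and with 1 of the replicates left out.

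Mgst1, a membrane-bound transferase and peroxidase of the endoplasmic reticulum and outer mitochondrial membrane, changed between 2 h and 12 h. WT replicates were at -0.14, 0.03 and 0.14 untreated, 0.03, 0.05 and 0.04 at 2 h, -1.02, -1.05 and -0.89 at 12 h and -1.42, -0.90 and -1.45 at 24 h. It was 1.99-fold lower at 12 h (-0.99 ± 0.20, limma adjusted p = 0.00409) and 2.40-fold lower at 24 h (-1.27 ± 0.20, limma adjusted p = 1.38e-04). KO replicates at 24 h were scattered, at -0.52, -0.10 and 0.64, with a log2 difference of -0.25 ± 0.20 from the untreated ones (limma adjusted p = 0.627). This value moved with single replicates: it was -0.57 and called lower without KO 24 h replicate 3, -0.60 and called lower without array sets A and B (limma adjusted p = 0.0283), and from -0.57 to 0.01 with each replicate left out in turn.

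Gstp1, the pi transferase, which male mouse liver expresses, was not called in any HGF comparison. WT replicates were at 0.47, 0.30 and -0.04 untreated and 0.02, 0.12 and -0.52 at 24 h (-0.37 ± 0.23, limma adjusted p = 0.378). Of the KO 24 h replicates at 0.33, -0.87 and 0.24, the low one is the noisy replicate 2.

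**Figure D2:**
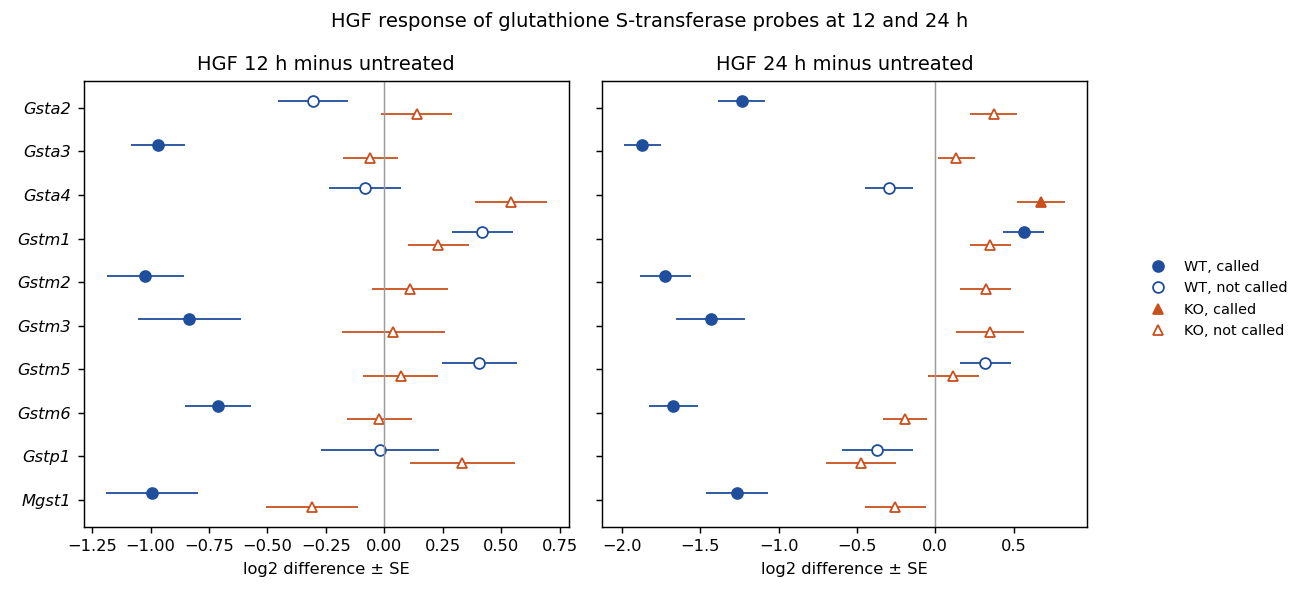
Log2 difference between HGF and untreated cultures ± SE (horizontal axis) for each gene (vertical axis) at 12 h (left) and 24 h (right), with WT in blue, KO in orange and filled symbols for probes called by limma. At 24 h the 6 genes that fell in WT lie between -1.87 and -1.24, while the 10 KO values lie between -0.47 and 0.68.

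Counted over the 10 genes in WT, none was called at 0.5 h (0.123% of all tested probes called), 2 were lower at 2 h (0.322% of all probes lower) and 5 lower at 12 h (3.16%). At 24 h, 6 were lower (4.76%) and 1 higher (3.96%). In KO none was called at 0.5 h (0.00686%), 2 h (0.0343%) or 12 h (0.13%), and 1 was higher (0.535%) and none lower (2.94%) at 24 h. The median over the 10 genes at 24 h was -1.25 in WT, beside -0.03 over all probes, and 0.23 in KO, beside 0.00. The 4 comparisons of a genotype share its untreated replicates, and the WT 24 h replicates also enter the genotype difference with which the genes were proposed. Whether the response differed between WT and KO was not tested.

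The falls in WT at 24 h were recomputed under other settings, with replicates left out in turn among them. All settings reuse the replicates with which the genes were proposed. They show how the calls depend on the processing and are no independent support for them. Gsta2, Gsta3 and Gstm2 were called in all of 21 alternative settings, Gstm6 in all of 20, and Gstm3 and Mgst1 in 20 of 21, both being lost with the 2 groups alone in the fit. Since groups differed in spread (residual SD 0.165 in WT at 2 h to 0.431 in KO at 24 h), the fit with weighted replicates is given for all 6. The limma adjusted p was then 2.32e-07 for Gsta3, 2.53e-05 for Gstm2, 1.74e-04 for Gstm6, 0.00488 for Gsta2, 0.00753 for Mgst1 and 0.0210 for Gstm3, with 1.36% of all probes called lower.

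For the 10 genes the dyes agreed in sign more often at 24 h than at 0.5 h, and their sizes differed at both. The share of all probes with the same sign is not given here, so the counts describe these genes only. In WT at 24 h all 10 genes had the same sign of change on the Cy5 arrays and on the Cy3 arrays, and in KO 8 of 10 did. Gsta3 in WT changed by -1.83 on Cy5 and -1.91 on Cy3, Gstm6 by -1.75 on Cy5 and -1.75 on Cy3 (-1.748 and -1.755), and Gstm2 by -1.36 and -2.08. Among the genes that did not fall, Gstm1 in WT changed by 0.82 on Cy5 and 0.31 on Cy3, Gstm5 by 0.61 and 0.03 and Gstp1 by -0.005 and -0.74. Gstp1 in KO had opposite signs, 0.19 on Cy5 and -1.14 on Cy3. At 0.5 h the signs were the same for 3 of 10 genes in WT and 2 of 10 in KO, at 2 h for 8 and 5, and at 12 h for 6 and 6. At 12 h the Gsta3 change was -0.44 on Cy5 (not called) and -1.49 on Cy3, and no other 12 h call was kept on the Cy5 arrays alone. Sizes at 0.5, 2 and 12 h therefore rest on the mean of 2 dyes that differed.

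**Figure D3:**
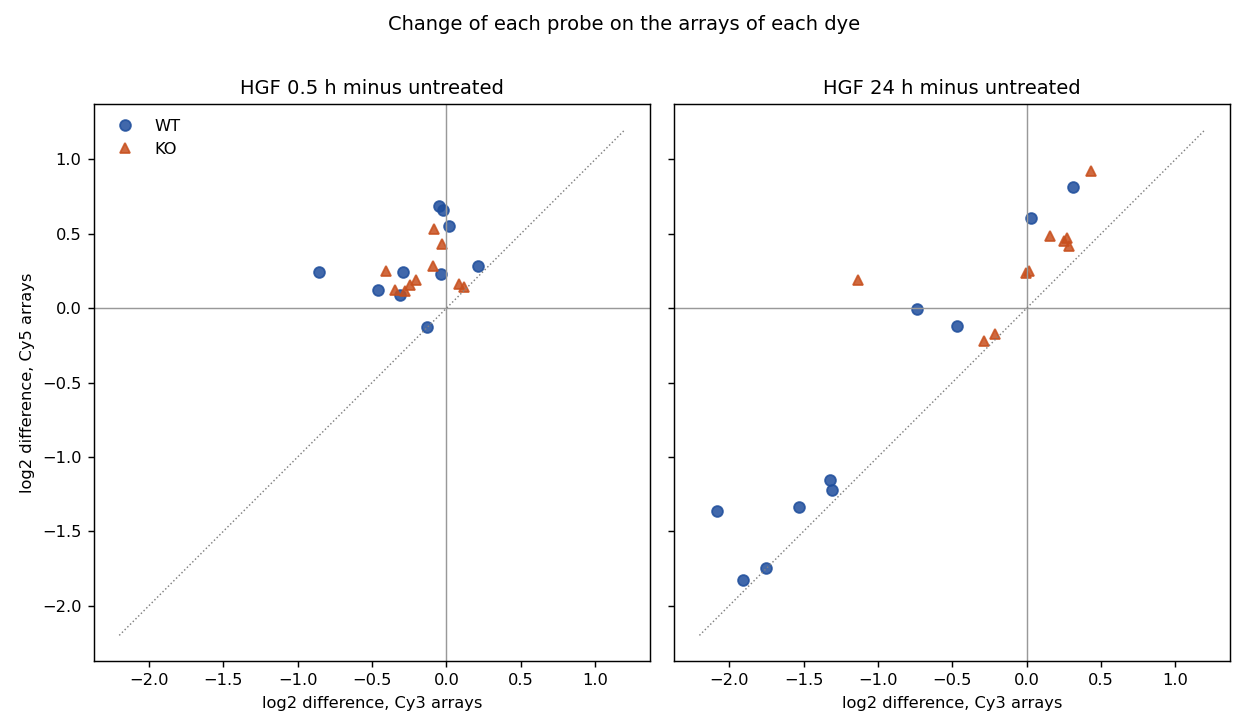
Log2 difference between HGF and untreated cultures measured on the Cy3 arrays (horizontal axis) and on the Cy5 arrays (vertical axis), 1 point for each of the 10 genes in WT (blue) and KO (orange), with a dotted line where both are equal. At 0.5 h (left) most points lie above the line with opposite signs on the dyes, whereas at 24 h (right) the 6 genes that fell in WT lie at -1.15 or below on Cy5 and -1.31 or below on Cy3.

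Steps between neighbouring HGF times were added after the data were seen, because their arrays lie mostly in 1 set. From 0.5 to 2 h in WT, 4 of the 10 fell, beside 10.1% of all probes: Gsta2 (-0.47), Gsta3 (-0.47), Gstm2 (-0.53) and Gstm6 (-0.63), with limma adjusted p from 0.00534 to 0.0371. The Gstm6 step was called in 19 of 20 alternative settings. The others were called in 11 to 16 of 21, and each of the 3 was lost with scale normalization, on the Cy3 arrays alone and with dye profiles removed, where the values were -0.26 for Gsta2, -0.19 for Gsta3 and -0.25 for Gstm2. The Gsta3 step was also lost without WT 0.5 h replicate 3, the Gsta2 step without any WT 0.5 h replicate or WT 2 h replicate 1 or 2, and the Gstm2 step without any WT 0.5 h replicate or WT 2 h replicate 1 or 3. On the Cy5 arrays alone the Gsta2 step (-0.54) and the Gsta3 step (-0.63) were lost too, so neither was called on a single dye. The Gsta2 step was also lost with the doubtful Cy5 array turned. From 12 to 24 h in WT the same 4 genes fell, by -0.93, -0.90, -0.70 and -0.96 in that order, beside 1.32% of all probes. All 4 of these steps were lost on the Cy3 arrays alone, where they were -0.68, -0.42, -0.47 and -0.75, and with only the 2 groups in the fit. Those of Gsta2, Gsta3 and Gstm2 were also lost with scale normalization. The Gstm2 step was lost too with weighted replicates and without WT 24 h replicate 1 or any WT 12 h replicate, and the Gsta2 step was lost with weighted replicates.

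KO cells showed a dip at 2 h in 2 alpha genes. Gsta2 in KO went from 1.36, 1.18 and 1.39 at 0.5 h to 0.27, 0.55 and 0.11 at 2 h and back to 1.25, 0.97 and 1.44 at 12 h. The step down was 2.00-fold (-1.002 ± 0.15, limma adjusted p = 0.00224), was called in 19 of 21 alternative settings and was lost on the Cy3 arrays alone and with scale normalization. Gsta4 in KO went from 1.14, 1.09 and 0.94 to 0.29, 0.19 and 0.46 and on to 1.70, 1.34 and 1.38, a step of -0.75 ± 0.15 (limma adjusted p = 0.0223). It was called in 14 of 21 settings and lost without KO 2 h replicate 1 or 2, without any KO 0.5 h replicate, on the Cy3 arrays alone and with scale normalization. Of all probes 0.405% were called lower in this step. KO 2 h replicate 3 lies in set A and the others in set D. Within set A the 2 h and untreated replicates were at 0.11 and 0.85 for Gsta2 and at 0.46 and 0.59 for Gsta4. Against untreated KO cells the 2 h differences were -0.78 ± 0.15 for Gsta2 (limma adjusted p = 0.0547) and -0.62 ± 0.15 for Gsta4 (0.373), and both were called with weighted replicates, without KO untreated replicate 3 and without array sets A and B. With array set as a term they were -0.75 for Gsta2 and -0.13 for Gsta4, and neither was called. From 12 to 24 h in KO none of the 10 was called, beside 0.528% of all probes.

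The differences between genotypes are given here as a description, and nothing is read from their size at 24 h. All 10 genes were nominally higher in untreated KO cells, by 0.08 (Gstm1) to 0.37 (Gstm3). At 2 h the differences ran from -0.31 (Gsta2) to 0.97 (Gstm6), and at 12 h from -0.16 (Gstm5) to 1.24 (Gstm3). At 24 h KO exceeded WT by 2.18 ± 0.12 for Gsta3, 2.15 ± 0.22 for Gstm3, 2.15 ± 0.16 for Gstm2, 1.85 ± 0.15 for Gsta2, 1.71 ± 0.16 for Gstm6 (n = 3 and 2), 1.32 ± 0.15 for Gsta4 and 1.26 ± 0.20 for Mgst1. Gstm1 (-0.13 ± 0.13), Gstm5 (-0.03 ± 0.16) and Gstp1 (0.03 ± 0.23) differed by less at 24 h. The genes were proposed for such differences, so the following counts only describe that choice, test nothing and nothing is read from them. Past the limit used for HGF were none of the 10 in untreated cells (0.0617% of all probes), 1 at 0.5 h (2%), 3 at 2 h (0.316%), 7 at 12 h (1.29%) and 7 at 24 h (2.41%), all higher in KO.

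**Figure D4:**
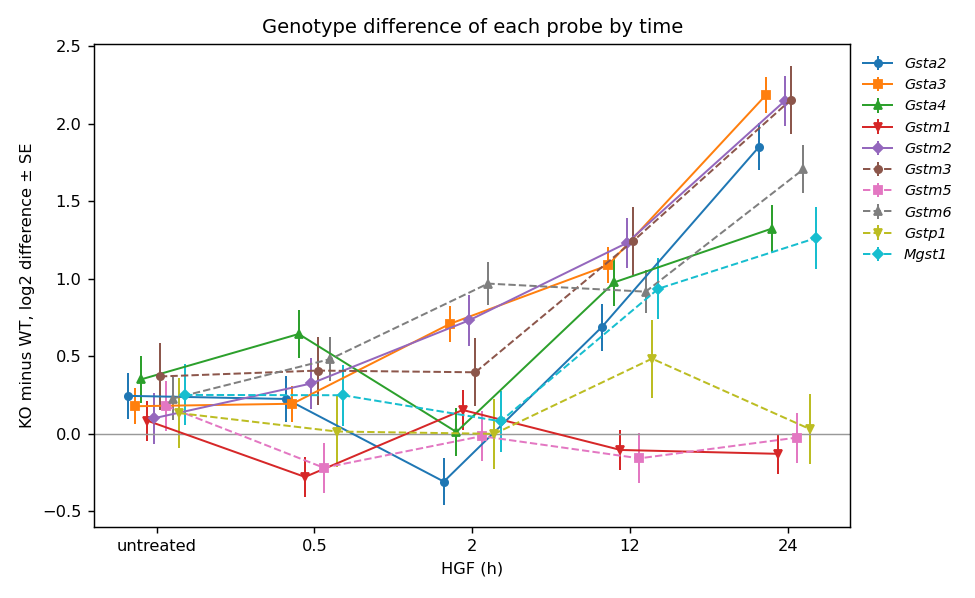
KO minus WT log2 difference ± SE (vertical axis) for each gene by HGF time (horizontal axis, evenly spaced categories). Untreated differences lie between 0.08 and 0.37, and at 24 h 7 genes lie between 1.26 and 2.18 while Gstm1, Gstm5 and Gstp1 lie between -0.13 and 0.03.

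The order of the 10 groups differed from gene to gene. WT at 24 h was the lowest group for all but Gstm1 and Gstm5. It stood apart from the next lowest group, with no overlap of replicates, for Gsta2, Gsta3, Gstm2, Gstm3 and Gstm6, whereas for Gsta4, Gstp1 and Mgst1 it overlapped it. The share of all probes with these patterns was not computed. These replicates also enter the genotype difference with which the genes were proposed, so the order is a description and nothing is read from it. KO at 24 h was the highest group for Gsta2 (1.46), Gsta3 (0.85), Gsta4 (1.61), Gstm2 (1.34) and Gstm3 (1.36), and for each of these its replicates overlapped those of the next highest group, which was also KO. The highest group was KO at 0.5 h for Gstm6 and Mgst1, KO at 12 h for Gstp1, WT at 12 h for Gstm5 and WT at 24 h for Gstm1.

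Across the 30 replicates the genes ran in groups, given here as a description of values that share arrays, dyes and conditions. Pearson's r was 0.94 between Gsta3 and Gstm6, 0.93 between Gsta3 and Gstm2 and 0.93 between Gstm2 and Gstm3. Gstm1 and Gstm5 ran together (0.79) and Gstm1 ran against Mgst1 (-0.62). By r with the mean of all 10 genes, each scaled to the same SD, the most alike other genes were Gsta1 (0.91), Creg1 (0.90), Cd164l2 (0.90), Ethe1 (0.89), Ephx1 (0.89), Glyat (0.89), Ttpa (0.88) and Mpc1 (0.87). Ephx1 is the microsomal epoxide hydrolase and Glyat conjugates glycine to acyl groups. Tmem68 (-0.82), Rnu3a (-0.80), Cck (-0.77) and Dennd1c (-0.77) ran most against them. Within set C alone (14 replicates) and set D alone (11 replicates) the r of Gsta1 was 0.94 in each.

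The remaining transferases and related genes were read from lists. Beside the counts of these lists at 24 h stand the shares of all probes already given, which were 4.76% lower and 3.96% higher in WT and 2.94% lower and 0.535% higher in KO. Of 13 other transferase and MAPEG genes tested, 2 fell and none rose in WT at 24 h, and none was called in KO. Gsta1, a close relative of Gsta2 whose probe may not tell them apart, fell (-1.22 ± 0.17, limma adjusted p = 4.49e-05) and the theta transferase Gstt1 fell (-0.40 ± 0.12, limma adjusted p = 0.0325, lost with weighted replicates). The list median in WT was -0.03, equal to that of all probes.

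Of 19 genes of glutathione synthesis and recycling tested, 3 rose and 1 fell in WT at 24 h, beside 3.96% and 4.76% of all probes, with a list median of -0.22. Ggct, γ-glutamylcyclotransferase, which breaks down γ-glutamyl peptides, rose 4.09-fold (2.03 ± 0.21, limma adjusted p = 5.51e-07) and stayed called with weighted replicates. Cndp2, a dipeptidase that splits cysteinylglycine, rose (0.64 ± 0.15, limma adjusted p = 0.00621) and Gss, glutathione synthetase, fell (-0.997 ± 0.24, limma adjusted p = 0.0101), and both calls were lost with weighted replicates. In KO 1 rose and 1 fell, the latter Cth, cystathionine γ-lyase (-0.79 ± 0.21, limma adjusted p = 0.0365, lost with weighted replicates). Gclc and Gclm, the subunits of the enzyme that limits glutathione synthesis, and Gsr, glutathione reductase, were not called in either genotype: in WT and KO their differences were -0.38 and 0.61, -0.18 and 0.19, and -0.23 and -0.30.

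Of 20 NRF2 target genes tested, 4 fell and 1 rose in WT at 24 h, beside 4.76% and 3.96% of all probes, and none was called in KO. The list median in WT was -0.11. Srxn1, sulfiredoxin, fell (-1.32 ± 0.19, limma adjusted p = 5.12e-05), as did Ephx1 (-0.88 ± 0.17, limma adjusted p = 9.32e-04) and Blvrb, biliverdin reductase B (-1.06 ± 0.29, limma adjusted p = 0.0198), whereas Hmox1, heme oxygenase, rose (0.58 ± 0.18, limma adjusted p = 0.0470). The calls of Blvrb and Hmox1 were lost with weighted replicates. Nqo1, the NRF2 target quinone reductase, was not called (-0.12 ± 0.19 in WT with 2 and 3 replicates, 0.16 ± 0.17 in KO).

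CAR and PXR targets numbered 13 among the tested probes, and 5 of them fell, beside 4.76% of all probes, and none rose in WT at 24 h. The cytochrome P450 genes Cyp2a4 (-2.61 ± 0.35, limma adjusted p = 1.91e-05) and Cyp2a5 (-2.39 ± 0.26, limma adjusted p = 3.29e-06) fell in WT and were at 0.07 ± 0.35 and 0.25 ± 0.26 in KO. Cyp2c29 fell in both genotypes, by -1.58 ± 0.37 in WT (limma adjusted p = 0.00647) and -1.51 ± 0.37 in KO (limma adjusted p = 0.0220). Aldh1a1, retinal dehydrogenase, rose in KO (1.60 ± 0.24, limma adjusted p = 4.72e-04), and in KO 2 of the 13 rose and 1 fell.

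Among 15 regulators tested, 2 fell in WT at 24 h and none was called in KO. Cebpa, a liver transcription factor, fell (-1.04 ± 0.18, limma adjusted p = 5.92e-04, 3 and 2 replicates), and Keap1, the inhibitor of NRF2, fell (-0.58 ± 0.14, limma adjusted p = 0.00880, lost with weighted replicates). Nfe2l2, the NRF2 gene itself, was at -0.46 ± 0.18 in WT (limma adjusted p = 0.133) and 0.57 ± 0.18 in KO (limma adjusted p = 0.0843).

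Hepatocyte markers moved down in both genotypes, and their part in the falls of the transferases was not tested. Of 10 tested, 4 fell in WT (4.76% of all probes) and 5 in KO (2.94%) at 24 h, with medians of -0.72 in each (-0.720 and -0.715), and the mean level per replicate was -1.38 to -0.87 in WT and -1.10 to -0.40 in KO, beside -0.33 to -0.09 and -0.27 to -0.07 untreated. Alb was not called (-0.06 ± 0.09 in WT and -0.08 ± 0.09 in KO). Markers of other liver cells were called in small numbers at 24 h. Of 6 Kupffer cell markers 2 fell in WT and 1 in KO, of 5 endothelial markers 1 fell in each, of 6 stellate cell markers 1 fell in each, of 6 bile duct markers 1 rose and 2 fell in WT and none was called in KO, and of 6 blood cell markers 1 fell in WT and none in KO.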

How the data were processed

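RNA of 30 hepatocyte replicates was read on 60 two-colour arrays. The deposited values are log2 ratios, 1 per probe and array, normalized by the authors before deposit; the log base was inferred from their range (largest absolute value 11.6), and the normalization, software and probe sequences are not given in the sources used here. Array medians were subtracted, and the Cy5 and Cy3 arrays of a replicate were averaged. Probes needed values on both arrays in at least 2 replicates of every group, which kept 14580 of 21997 probes (66.3%), 10963 of them with 1 gene symbol; 6.01% of values were missing. A model with 1 mean for each group and 1 shared spread was fitted with limma 3.58.1 under R 4.3.3 (20 residual and 4.48 prior degrees of freedom), two-sided, with Benjamini-Hochberg adjustment over all probes and a threshold of 0.05; no value was imputed. The fit was run on simulated data with independent noise of equal spread in all groups. The real groups differed in spread and the dyes differed, so that run is no check of either. Each genotype had 4 HGF comparisons, and 5 comparisons between genotypes are described only.

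The genes, lists and settings were chosen with earlier results of these data known. Named besides the 10 genes are, of each list, up to 4 called genes with the largest change at 24 h in WT or KO (otherwise the 2 with the largest change), Nfe2l2, Keap1, Nqo1, Gclc, Gclm, Gsr, Met and Alb, and the 8 most and 4 least alike genes. Of these, every one is printed. Precision is limited by the number of replicates.

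Replicate numbers were not taken to pair cultures across times. Same-numbered replicates correlated at -0.252 to 0.667 (median -0.018), and the best correlation was with the own number in 10 of 30 replicates. Alternatives covered centring, scaling, each dye alone, removal of dye profiles, probe filters, samples in the fit, weights, array sets, the sign of 1 array and each replicate left out.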

Additional observations from a re-analysis of the deposited data

Results flagged for a closer look

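At 24 h of HGF, 5 transferases had every WT replicate below the untreated WT mean and every KO replicate above the untreated KO mean. The KO response minus the WT response was 2.046 for Gstm2 (-1.723 in WT, 0.323 in KO), 2.005 for Gsta3 (-1.869 and 0.135), 1.784 for Gstm3 (-1.434 and 0.350), 1.608 for Gsta2 (-1.236 and 0.372) and 0.973 for Gsta4 (-0.296 and 0.676). At 0.5 h the replicates of the genotypes also lay wholly on opposite sides of their untreated means for Gsta4 (0.293; -0.170 in WT and 0.124 in KO), Gstm6 (0.255; -0.126 and 0.129) and Gstm5 (-0.397; 0.284 and -0.113). Of all 14580 tested probes, 3.82% had WT replicates below and KO replicates above at 24 h, and 15% had the genotypes on opposite sides in either direction at 0.5 h. The genes were proposed for differences between KO and WT, in which the 24 h replicates take part, so nothing is read from the counts. These differences between the responses were not tested. None of the 0.5 h responses was called in either genotype, and the dyes gave the same sign for 3 of 10 genes in WT and 2 of 10 in KO at that time.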

How the results depend on the processing

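Counts are over 40 pairs of gene and HGF time per genotype and 50 of gene and time between genotypes. In the fit as reported, 13 pairs were lower and 1 higher with HGF in WT, 0 lower and 1 higher in KO, and 18 higher and 0 lower in KO than WT, the last only describing how the genes were chosen. Of all probes, 0.322% were called lower in WT at 2 h, 3.16% at 12 h and 4.76% at 24 h, and 1.36% at 24 h with weights. Shares under the other settings are not given. The counts below therefore cannot separate a change in the transferases from a change in the calls over all probes. Lower pairs in WT numbered 6 on Cy5 arrays alone and 6 with only the 2 groups in the fit. Higher pairs in WT numbered 3 with dye profiles removed or array set as a term, 2 without centring, on Cy5 alone, with the filter on all 3 replicates or without array sets A and B, and 0 with scale normalization, Cy3 alone, only 2 groups, weights or the doubtful array turned. Higher pairs in KO numbered 2 with dye profiles removed or array set as a term and 0 with scale normalization, either dye alone or only 2 groups. Lower pairs in KO numbered 1 without centring or with dye profiles removed, 2 with weights and 3 without array sets A and B. Pairs higher in KO than WT numbered 10 on Cy3 alone, and 1 pair was lower in KO with array set as a term. Some of these settings had fewer samples or arrays in the fit. The cause of the changed counts was not tested.

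With each replicate left out in turn, the counts in WT were 11 to 14 lower and 1 to 3 higher, in KO 0 to 2 lower and 0 to 1 higher, and between genotypes 16 to 19 higher and 0 lower. Higher pairs in WT numbered 2 without WT untreated replicate 1 and 3 without WT 24 h replicate 3. Higher pairs in KO numbered 0 without KO untreated replicate 2 or 3, and lower pairs 2 without KO untreated replicate 3 and 1 without KO 12 h replicate 2 or KO 24 h replicate 3. Without the 2 doubted replicates they were 12 lower and 1 higher in WT, 0 lower and 1 higher in KO, and 19 higher and 0 lower in KO than WT. With the repeat number as a replicate block they were 13 lower and 1 higher in WT, 0 lower and 1 higher in KO and 18 higher and 0 lower in KO than WT. Of single genes in HGF comparisons under all alternatives, 1587 values kept their side of the threshold, 47 lost a call and 30 gained one, and none of the called values changed sign.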
